A study of Macaca mulatta with 17 samples.

Results

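Gene expression in the fetal uterus at gestational day (GD) 100 was compared between 5 rhesus macaque fetuses whose dams were given bisphenol A (BPA) and 5 whose dams were given vehicle, which are 10 of the 17 uterus arrays of the study. The arrays were chosen by their group labels alone and not by any measured value. BPA-exposed dams ate a daily fruit treat with deuterated BPA at 400 µg per kg of body weight from GD50 to GD100, control dams ate the treat with ethanol, and all 10 fetuses were female and were delivered at GD100 by caesarean section. The remaining 7 arrays were 3 from fetuses exposed from GD100 to GD165 and 4 from their controls, delivered vaginally at GD165 to GD168. Stillborn fetuses of that age were left out of the arrays by the study. These 7 arrays entered the fit to estimate the spread between animals and served for 1 comparison of the BPA effects at both ages. The dose reached the fetus through the dam, and each array held RNA from a frozen lengthwise piece of 1 uterus, the other piece being kept for histology, with all its cell types, so that fewer cells of a type and less RNA per cell cannot be told apart.

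BPA is the monomer of polycarbonate plastics and a building block of epoxy resins that binds the estrogen receptors, weakly compared with estradiol, and can also bind estrogen-related receptor gamma and the membrane receptor GPER. Before it can act, most of an oral dose is joined to glucuronic acid or sulfate by UDP-glucuronosyltransferases (UGTs) and sulfotransferases (SULTs), and beta-glucuronidase and sulfatases can release it again. In the fetal uterus, which forms from the Müllerian ducts under HOX and WNT patterning genes, estrogen receptor is present before birth.

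Levels are given as log2 intensity with the 75th percentile of every array set to 12.62, and a difference of 1 log2 unit is 2-fold. Spots well above background made up 83.8 to 89.0% of each GD100 array, and the 5 arrays per group limit the precision of each value. The label of the tissue was checked against 8 markers of the uterus and Müllerian tract, of which 7 (HOXA9, HOXA10, HOXA11, EMX2, WNT7A, AMHR2 and ESR1) were well above background on all 10 arrays. PGR, which encodes the progesterone receptor, was not well above background on any of the 10 arrays. All 6 smooth muscle markers, 4 stromal markers and 4 matched markers of columnar epithelium were well above background on every array. Markers of other cells were read too: all 4 of leukocytes, all 3 of endothelium and all 3 of nerve, 4 of 5 of blood, 4 of 5 of skeletal muscle, 3 of 4 of squamous epithelium and 3 of 4 of urothelium. The squamous marker SPRR3 was not above this limit anywhere.

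One array, that of BPA replicate 1, stood apart from the other 9. On it 368 probes lay at least 2-fold above the next highest of the 10 arrays, against 20 to 70 such probes on each of the others. The genes named next were picked for their gaps after the values were seen. DAZL and DDX4, which encode RNA-binding proteins of germ cells, were at 10.78 and 9.97 on this array and at no more than 5.78 and 6.19 on the others. SPO11, which makes the DNA breaks that start meiotic recombination, was at 6.28 with the next array at 2.05, and the meiotic gene HORMAD1 was at 10.68 with the next at 6.53. NANOG, a factor of pluripotent cells, was at 8.89 with the next at 4.80. Genes of other kinds had wide gaps too, among them the homeobox gene HOXC13, at 6.51 with the next array at 2.05, and CGA, which encodes the alpha chain shared by the glycoprotein hormones, at 7.26 with the next at 3.42. Of the ovarian markers, FOXL2 was at 7.16 on this array and at 6.73 to 7.52 on the other 9. FOXL2 was well above background on all 10 arrays and is also a member of the Müllerian list. It is thus not a marker of ovary alone here. FSHR, the follicle-stimulating hormone receptor, did not clear the background limit in any of the 10 uteri.

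For whole gene lists, a score was computed per array as the mean log2 deviation of the genes from their mean over the 10 arrays. The score of the ovary and oviduct list (18 genes, 13 of them well above background on all 10 arrays) was 0.98 on the array of BPA replicate 1 and between -0.53 and 0.23 on the others. The nerve and Schwann cell list scored 0.92 there and between -0.31 and 0.17 elsewhere, and the skeletal muscle list 0.78 there and between -0.31 and 0.13 elsewhere. This array had the highest score of the 10 in 11 of the 31 lists. Its part in the results was not tested, and the differences of these 3 lists are given with and without it. A second departure was smaller: the erythroid list, with the globin and heme synthesis genes, scored 0.52 on the array of BPA replicate 4 and between -0.23 and 0.15 on the others.

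**Figure D1:**
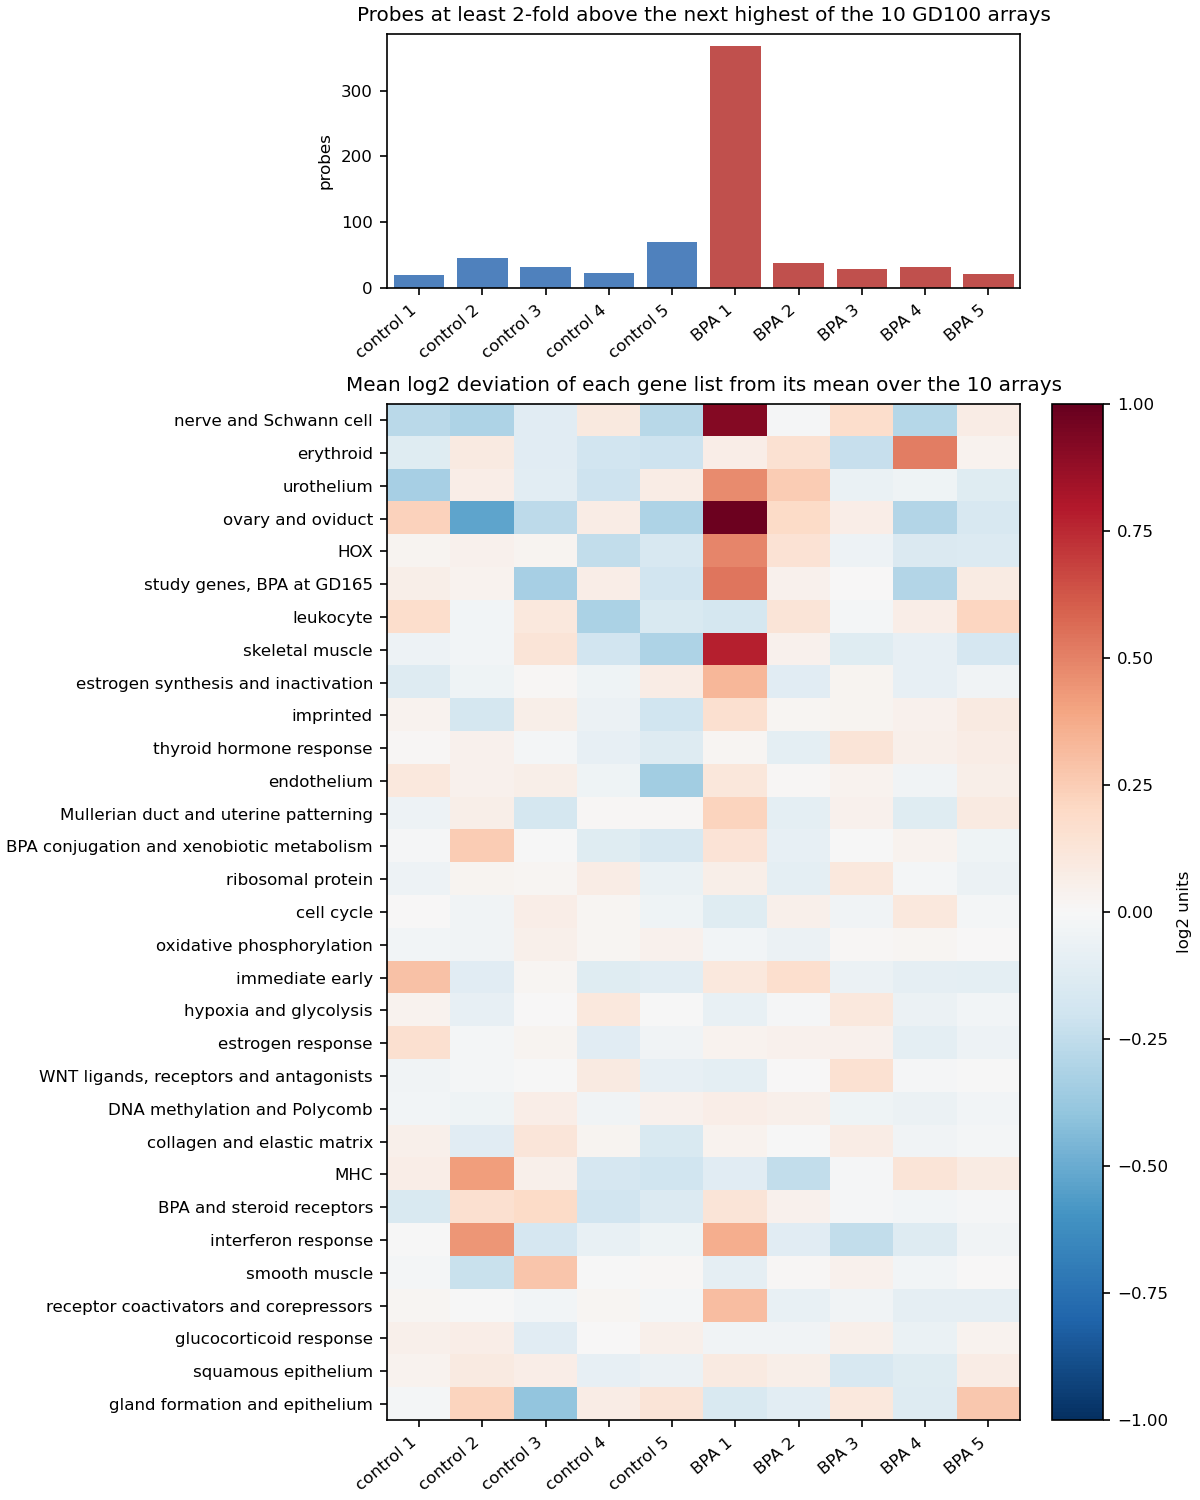
The upper panel shows, for each of the 10 GD100 arrays (horizontal axis), the number of probes at least 2-fold above the next highest array; blue bars are control and red bars BPA replicates. The lower panel colors the score of each gene list on each array, in log2 units. The array of BPA replicate 1 has 368 such probes and scores of 0.98, 0.92 and 0.78 for the ovary and oviduct, nerve and skeletal muscle lists.

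No probe passed an adjusted p of 0.01 between BPA and control in limma's test (0 of 20217, 0%). The lowest adjusted value was 0.578, that of COX7C. Unadjusted p-values under 0.05 were found for 767 probes (3.79%), 443 (2.19%) with higher and 324 (1.6%) with lower levels in BPA. With arrays scaled to their medians the same split was 287 higher and 495 lower, so the excess of higher probes turned with the scaling. Without the array of BPA replicate 1, 588 probes were at an unadjusted p of 0.05, and 433 of them were among the 767. A fit to the 10 GD100 arrays alone called 1 probe, for COX7C. A z test that took its error from the scanning software's error model, and not from the spread between animals, called 3363 probes, 2086 higher and 1277 lower, of which 104 had groups that did not overlap. The median SD between the 2 spots of a probe was 0.0483 log2 units, and the median SD between animals was 0.206 in BPA and 0.221 in controls.

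The data also bound how large a difference can remain. The 95% confidence interval of the BPA effect lay within 1.5-fold either way for 13328 of the 20217 probes (65.9%) and within 2-fold for 17714 (87.6%). Among the 16800 probes well above background on all 10 arrays these shares were 73.8% and 92.4%. Differences of 2-fold or more in the group means were found for 168 probes, 81 of them well above background on all 10 arrays.

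**Figure D2:**
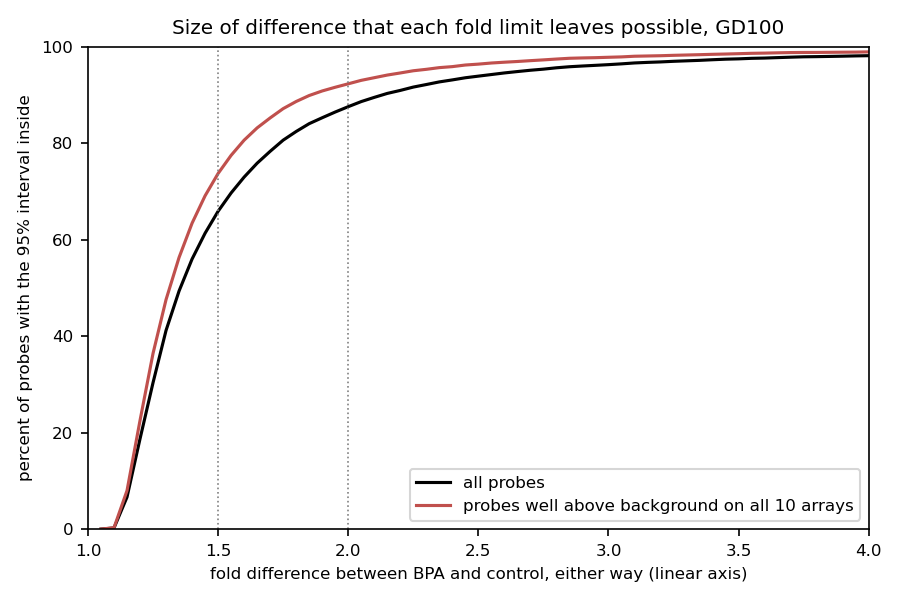
The percentage of probes (vertical axis) whose 95% interval for the difference between BPA and control lies inside a given fold either way (horizontal axis), for all 20217 probes and for the 16800 well above background on all 10 GD100 arrays. The curves pass 65.9% and 73.8% at 1.5-fold and 87.6% and 92.4% at 2-fold.

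In 158 probes (0.782%) the 5 BPA and 5 control levels did not overlap, 77 (0.381%) higher and 81 (0.401%) lower in BPA. The genes described next lead these by size or have the smallest p, and none passed the adjusted threshold. For a gene chosen for the lack of overlap, the exact permutation p over 252 regroupings is fixed by that choice at 0.00794. This is the smallest two-sided value that 5 arrays against 5 allow, and it supports nothing. The sign of such a gene's difference within a slide, or with a single animal left out, is fixed as well. Genes chosen for the smallest p, such as STEEP1, can overlap, and their p-values are no support either.

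GUSB, which encodes beta-glucuronidase, the lysosomal enzyme that splits glucuronides, was higher in BPA. Its levels were 12.96, 12.99, 13.62, 13.47 and 13.19 in BPA replicates 1 to 5 and 12.30, 11.71, 11.82, 12.20 and 12.01 in control replicates 1 to 5. The lowest BPA array lay above the highest control array. The difference was 1.24 ± 0.25 log2 units (SE, n = 5 and 5; 95% interval 0.71 to 1.76), or 2.36-fold, with an adjusted p of 0.918 in limma's test. Within the 3 slides that held both groups the differences were 1.37, 1.48 and 1.14, and leaving out single animals gave 1.15 to 1.31. At GD165 the means were 12.65 in BPA and 12.87 in controls.

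FLJ32942, a gene the array lists by a clone name only, had the largest difference of the 158 among named probes well above background on all 10 arrays. It was at 8.72, 6.80, 7.27, 8.63 and 8.22 in BPA and at 6.72, 6.76, 5.20, 5.59 and 5.18 in controls. BPA replicate 2 was barely above control replicate 2, and the difference was 2.03 ± 0.43 (SE), or 1.11, 1.46 and 3.52 within the slides. C21orf13, an open reading frame of human chromosome 21 in the annotation, was at 9.19, 9.59, 10.33, 10.41 and 10.12 in BPA and at 8.92, 8.70, 7.58, 8.84 and 8.74 in controls, a difference of 1.37 ± 0.30. CCL26, the chemokine eotaxin-3 that attracts eosinophils, was at 7.83, 7.98, 8.16, 7.71 and 7.79 in BPA and at 5.98, 7.45, 6.32, 6.60 and 6.59 in controls. The BPA arrays lay close together and the controls were more spread. The difference was 1.31 ± 0.27, or 1.87, 0.34 and 1.51 within the slides.

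MYBPC2, which encodes the fast-type myosin-binding protein C of skeletal muscle, was at 11.15, 11.20, 10.70, 10.88 and 11.06 in BPA and at 9.90, 10.61, 10.12, 9.95 and 9.47 in controls, a difference of 0.99 ± 0.23. It was 0.95 without the array of BPA replicate 1, on which the skeletal muscle list was high, and 0.78, 0.45 and 1.03 within the slides. STEEP1, which takes part in the exit of the innate immune adaptor STING from the endoplasmic reticulum, had the smallest p of the named probes higher in BPA. Its groups overlapped by 1 control array, at 8.15 against a lowest BPA array of 8.14, and the difference was 0.71 ± 0.14 with an adjusted p of 0.918 in limma's test. The other genes higher without overlap were C20orf108, FLJ20211, ALDH1B1, DCAMKL1 and KM-HN-1, with differences of 0.52 to 0.70.

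COX7C, a small subunit of cytochrome c oxidase in the mitochondrial respiratory chain, had the smallest p of all probes. The brighter of its 2 probes was at 12.92, 12.97, 13.15, 13.05 and 12.99 in BPA and between 13.91 and 14.06 in controls. Both groups were tight and far apart, with a difference of -0.97 ± 0.16 (SE; 95% interval -1.32 to -0.62), or 1.96-fold lower in BPA, an unadjusted p of 2.86e-05 and an adjusted p of 0.578 in limma's test. Within the slides the differences were -0.83, -0.99 and -1.06. The second COX7C probe was at a mean of 6.60 in BPA and 6.51 in controls, a difference of 0.09 ± 0.17, so the probes of this gene disagreed. In the fit to GD100 arrays alone the brighter probe had an adjusted p of 0.000846. The same probe ranged from 12.99 to 14.27 in the 3 BPA arrays at GD165 and from 12.89 to 13.17 in the 4 controls.

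LIX1, which takes part in the growth of smooth muscle progenitors, was at 9.86, 8.85, 9.78, 9.06 and 9.79 in BPA and at 10.17, 10.45, 9.86, 10.61 and 10.24 in controls. BPA replicates 2 and 4, both on a slide without GD100 controls, were lowest. The difference of -0.80 ± 0.23 became -0.61, -0.66 and 0.00 within the 3 slides, and -0.50 with slide as a block. BST2, tetherin, an interferon-induced membrane protein that holds back budding viruses, was at 14.80, 14.70, 14.77, 14.72 and 14.53 in BPA and at 15.25, 15.93, 14.82, 15.31 and 15.51 in controls. The lowest control array lay just above the highest BPA array, and the difference was -0.66 ± 0.18, or -0.51, -1.40 and -0.02 within the slides.

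Further genes of the rule that were lower in BPA were MGC34837, ZNF503, RNF137, SCIN, FEM1A, ZNF141, ATP8B4 and C14orf104, with differences of -0.78 to -0.31, and TAPBP, which loads peptides onto MHC class I. The TAPBP probe with the small p was dim and differed by -0.37 ± 0.10, while the brightest TAPBP probe differed by -0.06 ± 0.15.

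**Figure D3:**
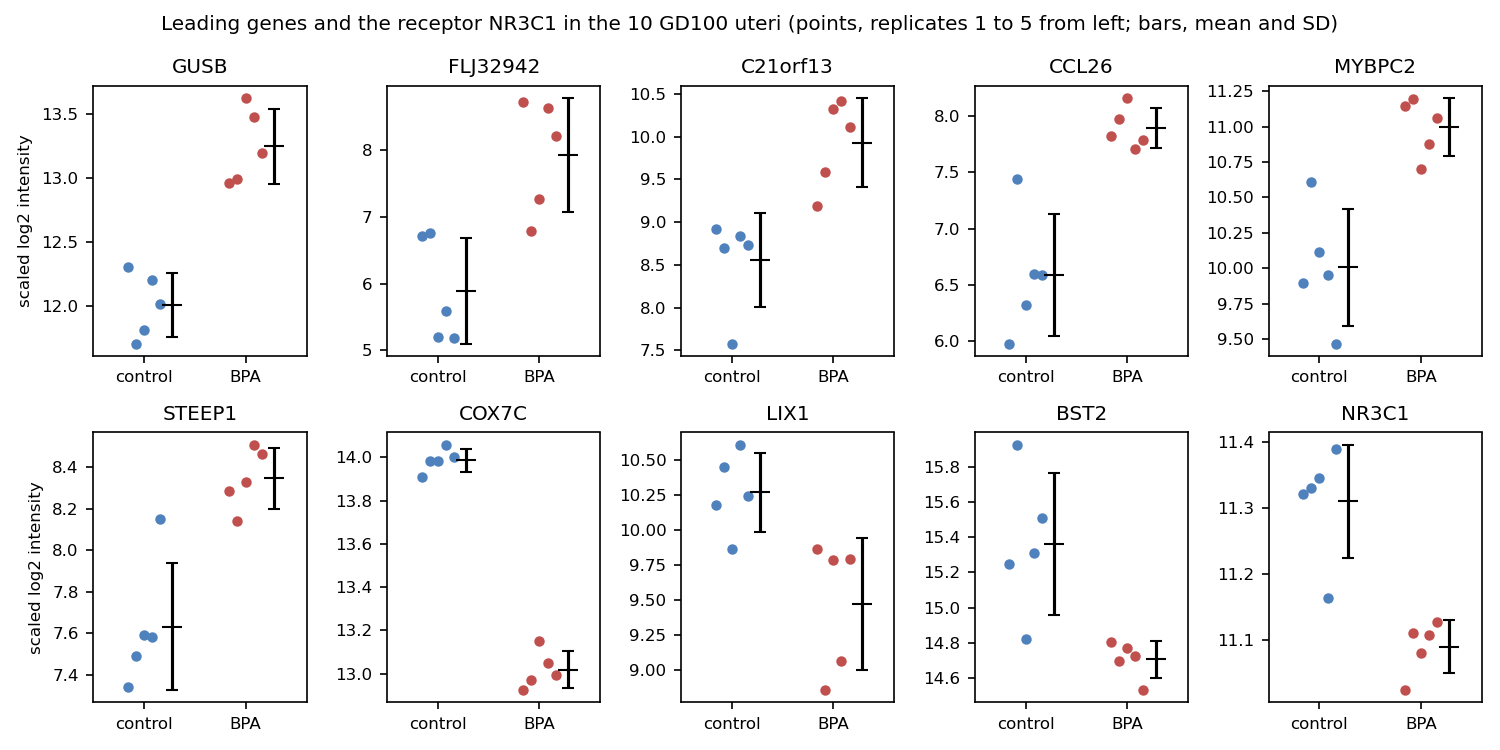
Scaled log2 intensity (vertical axes, each panel with its own range) of 9 leading genes and of the receptor NR3C1 in the 5 control (blue) and 5 BPA (red) uteri at GD100; points are replicates 1 to 5 from left to right, and bars are the mean and SD. GUSB lies at 12.96 to 13.62 in BPA and 11.71 to 12.30 in controls, and COX7C at 12.92 to 13.15 and 13.91 to 14.06.

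Among the receptors that BPA or steroids bind, 20 genes were matched to probes and 15 were well above background on all 10 arrays. Of the 20, 8 were higher and 12 lower in BPA with a median of -0.04, beside 53.3% of all probes higher and a median of 0.01, and 0 passed the adjusted threshold. ESR1, which encodes estrogen receptor alpha, was at 9.87, 10.52, 10.18, 10.49 and 10.61 in BPA and at 10.26, 10.48, 10.69, 10.31 and 10.69 in controls. The groups overlapped over most of their range, and the difference was -0.15 ± 0.15 with a 95% interval of -0.47 to 0.17.

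ESR2, for estrogen receptor beta, differed by 0.17 ± 0.23 (95% interval -0.32 to 0.66). The gene of the membrane estrogen receptor GPER, listed on the array as GPR30, differed by -0.25 ± 0.19 (-0.65 to 0.14), and ESRRG, for estrogen-related receptor gamma, by -0.20 ± 0.27 (-0.78 to 0.37). A 2-fold difference either way lay outside all 4 of these intervals. PGR had no level to compare, and neither had AHR, the dioxin receptor.

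NR3C1, which encodes the glucocorticoid receptor, was at 11.02, 11.11, 11.08, 11.11 and 11.13 in BPA and at 11.32, 11.33, 11.35, 11.16 and 11.39 in controls. Every BPA array was below every control array. The difference was -0.22 ± 0.09 (95% interval -0.40 to -0.04, unadjusted p = 0.0216 in limma's test), or -0.16, -0.20 and -0.32 within the slides. The list of 20 glucocorticoid response genes had 8 higher and 12 lower, with a median of -0.06 and 0 at an unadjusted p of 0.05.

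ARNT, the partner of AHR, showed how single arrays widen an interval. Control replicates 4 and 5 were at 5.30 and 5.17 while the other 3 controls were at 8.57 to 9.64 and the BPA arrays at 7.96 to 9.37, and the difference was 1.43 ± 0.90. Of the 18 receptor coactivators and corepressors, 8 were higher and 10 lower with a median of -0.06. CREBBP, a histone acetyltransferase that many receptors recruit, was 0.23 ± 0.09 lower in BPA (unadjusted p = 0.0313 in limma's test).

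Of the genes for conjugation and other metabolism of BPA, 28 were matched, 17 were well above background on all 10 arrays, and 14 were higher and 14 lower with a median of 0.01. Only GUSB, 1 of the 28, was at an unadjusted p of 0.05, beside 3.79% of all probes. The genes of the UGT2B family, which conjugate steroids and phenols in liver, gave little to compare: UGT2B7 and UGT2B17 were not well above background on any array, UGT2B4 on 1 and UGT2B15 on 4. UGT1A6 was at 4.39 to 8.26 in controls, with replicate 2 highest, and at 5.25 to 6.18 in BPA.

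SULT1E1, the estrogen sulfotransferase, was at 15.31, 15.82, 15.78, 16.06 and 15.19 in BPA and at 13.77, 15.70, 15.55, 15.92 and 15.98 in controls. Control replicate 1 was apart from the rest, and the difference of 0.25 ± 0.53 changed sign to -0.16 without it. SULT1A1, a phenol sulfotransferase, differed by -0.47 ± 0.35 and the steroid sulfatase gene STS by -0.01 ± 0.14. The cytochrome P450 genes CYP3A5 and CYP3A7, whose enzymes oxidize steroids and drugs, were 0.67 ± 0.35 and 0.53 ± 0.32 lower in BPA, with overlap between the groups. CYP1B1, which hydroxylates estradiol, ranged from 12.94 to 15.45 in BPA and from 13.86 to 15.05 in controls.

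The wider estrogen pathway gave no called gene. Of 32 estrogen response genes, 15 were higher and 17 lower with a median of -0.01, and 0 were at an unadjusted p of 0.05. MYC, a growth regulator induced by estrogen in adult uterus, had means of 13.79 in BPA and 14.11 in controls, without overlap and with a difference of -0.32 ± 0.16. TFF1, a secreted trefoil protein and classical estrogen target, differed by -0.49 ± 0.29. FOS, an immediate early gene, was at 14.71 in control replicate 1 and at 9.98 to 12.35 on the other 9 arrays, and its difference of -0.52 ± 0.78 had opposite sign, 0.30, without that control. The 20 genes of estrogen synthesis and inactivation had 13 higher, 7 lower and a median of 0.07.

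The proliferation marker MKI67 was at 7.76, 7.37, 7.80, 7.57 and 6.94 in BPA and at 7.90, 7.17, 7.81, 7.30 and 6.90 in controls, a difference of 0.07 ± 0.23. The 53 cell cycle genes were divided into 27 higher and 26 lower with a median of 0.00, and for 46 of them the 95% interval lay within 1.5-fold. With slide position as a block their median was 0.11, and that of the skeletal muscle list 0.38. Position and exposure were unequal, since 4 of the 5 control arrays but 1 of the 5 BPA arrays lay at the first position of a slide.

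Among genes that pattern the uterus, the 37 HOX genes had 22 higher and 15 lower in BPA and a median of 0.12, which was 0.03 without the array of BPA replicate 1 and 0.07 without that of control replicate 4. HOXA10 and HOXA11, which give the uterus its identity along the Müllerian duct, each differed by -0.07, with SE of 0.07 and 0.12. HOXA6 was at 9.22, 9.14, 9.14, 8.74 and 8.60 in BPA and at 8.87, 8.04, 8.69, 7.91 and 7.50 in controls, with overlap and a difference of 0.77 ± 0.23. HOXD3 differed by 0.46 ± 0.20. These were the 2 of the 37 HOX genes at an unadjusted p of 0.05, beside 3.79% of all probes.

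The 35 genes of Müllerian duct formation had 18 higher, 17 lower and a median of 0.01. EMX2, needed for the ducts to form, differed by -0.13 ± 0.09 and AMHR2, the receptor for anti-Müllerian hormone, by 0.31 ± 0.22. PAX8 and EYA1, transcriptional regulators of urogenital development, were 0.31 ± 0.17 and 0.34 ± 0.19 lower. The 53 WNT ligands, receptors and antagonists had 23 higher, 30 lower and a median of -0.01. WNT7A, which uterine epithelium secretes, differed by -0.09 ± 0.19. DKK1, a secreted WNT antagonist, was at 10.94, 10.90, 12.12, 11.76 and 12.07 in BPA and at 10.58, 10.70, 10.73, 11.48 and 10.79 in controls, a difference of 0.70 ± 0.30 with overlap.

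Genes of gland formation and epithelium had the lowest median of the 31 lists, -0.08, with 11 of 28 higher and 0 at an unadjusted p of 0.05. Within it the stromal growth factors FGF7 and FGF10 were 0.32 ± 0.19 and 0.45 ± 0.27 lower in BPA, and EPCAM, an epithelial adhesion molecule, was 0.31 ± 0.23 lower. For muscle, 11 of 31 smooth muscle genes were higher with a median of -0.05, and CNN1, calponin, differed by -0.45 ± 0.30. For matrix, 20 of 45 collagen and elastic matrix genes were higher with a median of -0.03. POSTN, a stromal matrix protein, was at 14.63, 14.41, 14.20, 14.18 and 14.46 in BPA and at 14.63, 13.56, 14.28, 13.34 and 13.33 in controls. Controls 1 and 3 were level with the BPA arrays, and the difference was 0.54 ± 0.24.

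Lists with medians over 0.1 were those of nerve, erythroid, urothelial, ovarian and HOX genes. The nerve and Schwann cell list had 24 of 30 genes higher and a median of 0.25, which was 0.11 without the array of BPA replicate 1 and 0.38 within the slides that held both groups. STMN2, a neuronal microtubule regulator, was at 12.38 on that array, at 10.72 in BPA replicate 3 and at 10.06 in control replicate 4, and its difference of 1.09 ± 0.84 became 0.42 without it. The ovary and oviduct list had 13 of 18 higher and a median of 0.16, and 0.13 without the same array. DDX4 differed by 1.30 ± 0.75 with it and by 0.43 without it.

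The erythroid list had 33 of 43 genes higher in BPA and a median of 0.21. The median was 0.07 without the array of BPA replicate 4, 0.12 without that of control replicate 5, -0.03 with slide as a block, and 0.00 within the slides that held both groups. ALAS2, which starts heme synthesis in red cells, was at 13.67 in BPA replicate 4, at 11.48 to 12.52 in the other BPA arrays and at 10.56 to 12.22 in controls. Of the 41 skeletal muscle genes, 25 were higher with a median of 0.07. Without the array of BPA replicate 1 these were 22 and 0.01. MYH8, a perinatal myosin, was at 8.87 on that array and at 3.82 to 5.77 on the others, and its difference of 1.06 ± 1.33 was 0.26 without it. In both lists 0 genes passed the adjusted threshold.

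Immune lists were mixed. Of 28 interferon response genes, 11 were higher and the median was -0.05. The 2 at an unadjusted p of 0.05, beside 3.79% of all probes, were BST2 and MX1, an antiviral GTPase. MX1 was 0.52 ± 0.23 lower in BPA. The interferon score was highest on the array of control replicate 2, at 0.44, and next on that of BPA replicate 1, at 0.36. Of 45 leukocyte genes, 27 were higher with a median of 0.08, and CD4, the coreceptor of helper T cells that macrophages of primates also carry, differed by 0.42 ± 0.18. The 20 MHC genes had a median of -0.04.

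Among respiratory chain genes COX7C was the only one without overlap, beside 0.782% of all probes. The 63 oxidative phosphorylation genes had 31 higher, 32 lower and a median of 0.00, and for 56 of them the interval lay within 1.5-fold. The 51 ribosomal protein genes had a median of 0.01 and 45 within 1.5-fold. The 34 genes of DNA methylation and Polycomb had a median of -0.02 and 31 within 1.5-fold. The 19 imprinted genes had 15 higher and a median of 0.06, or 0.11 without the array of BPA replicate 1, with PLAGL1, a zinc finger regulator of fetal growth, higher by 0.52 ± 0.19 with overlap.

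The other lists gave medians close to 0 as well. They were 0.02 for 19 thyroid hormone response genes, 0.00 for 30 immediate early genes, 0.00 for 29 hypoxia and glycolysis genes, 0.02 for 23 endothelial genes and -0.07 for 42 squamous epithelium genes, the last -0.31 with slide as a block. For 8 urothelial genes the median was 0.17, or 0.08 without the array of BPA replicate 1 and 0.29 without that of control replicate 5. A list of 28 genes that the study names for BPA at GD165, which was chosen on other arrays of this series, had 18 higher and a median of 0.09 at GD100. Leaving out single animals moved this median from 0.03, without BPA replicate 1, to 0.26, without BPA replicate 4, and it was 0.17 with slide as a block. Over the 943 distinct genes of the lists, 25 (2.65%) were at an unadjusted p of 0.05, beside 3.79% of all probes.

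**Figure D4:**
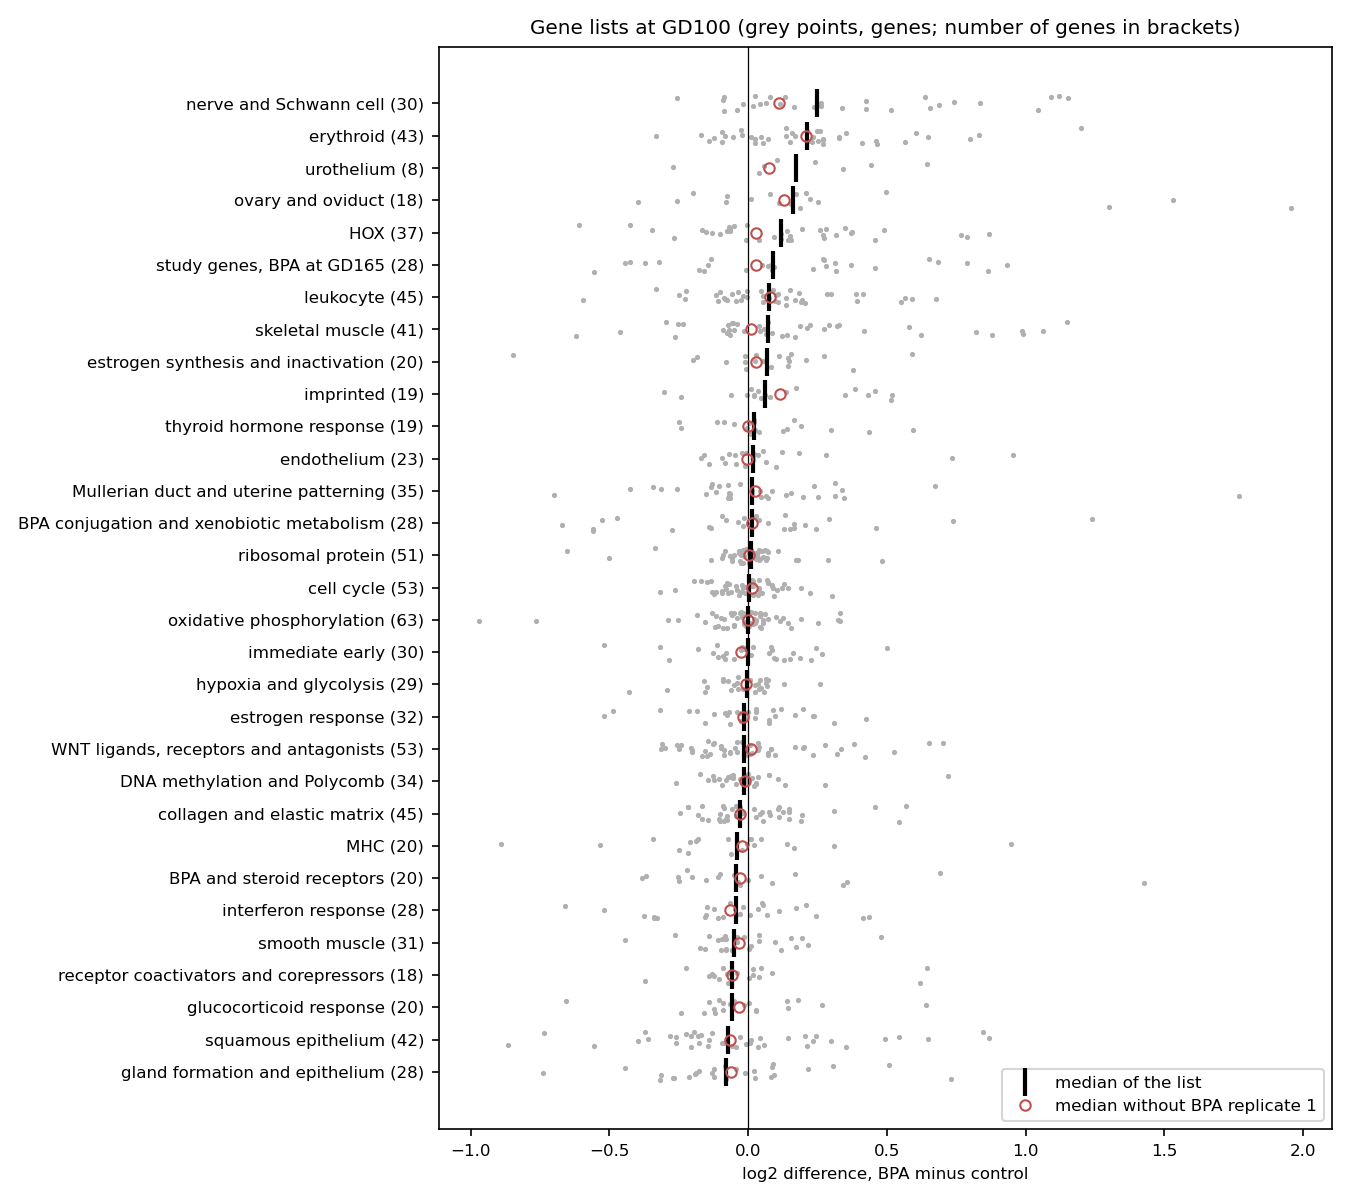
Log2 difference between BPA and control at GD100 (horizontal axis) for the genes of 31 lists (grey points), with the median of each list (black bars) and the median without the array of BPA replicate 1 (red circles); the number of genes is given in brackets. Medians run from -0.08 to 0.25, and 26 of the 31 lie within 0.1 of 0.

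Whether the BPA effect differed between GD100 and GD165 was tested as the interaction of exposure and age. No probe passed an adjusted p of 0.01 (0 of 20217, 0%), with 0.269 the lowest adjusted value, and 1584 probes (7.83%) had an unadjusted p under 0.05. The z test on the error model alone called 4663. For COX7C the effect was -0.97 at GD100 and 0.65 at GD165, and their difference of -1.61 had an unadjusted p of 1.46e-05 in limma's test. For MYBPC2 the effects were 0.99 and -0.82 (unadjusted p = 0.000162), and for GUSB 1.24 and -0.22 (unadjusted p = 0.00177), both in limma's test. All of these genes were chosen for their differences at GD100, which the interaction contains. Their small p-values come in part from that choice and are no support for a different effect. The exposures at the 2 ages differed in their window, and delivery was by caesarean section at GD100 but vaginal at GD165. Age, window and mode of delivery therefore cannot be told apart.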

How the data were processed

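Uterine RNA was labelled with Cy3 and hybridised to 1-colour Agilent rhesus arrays, 17 arrays on 6 slides. The deposited files hold the processed intensity of each spot, which the authors obtained with Feature Extraction 9.5 at 1-colour settings (background subtraction included). The deposited value table of the series was compared with these spots, and 711467 of 711467 values were identical.

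Control spots and outlier spots were left out, log2 was taken and the 2 spots of a probe were averaged, giving 20217 probes. Each array was then shifted so that the 75th percentile of its probe values was 12.62. Names came from the array annotation, updated where possible, and 18049 probes carried one. A gene with several probes was read from its brightest. The 4 groups were fitted together with limma 3.58.1 in R 4.3.3 (lmFit, eBayes; 15.0 degrees of freedom in total), and p-values were adjusted by Benjamini-Hochberg over all probes, with a threshold of 0.01. The study's own analysis of variance in its array software was not run here. The nearest alternatives took weights, or the whole error, from the scanner's error estimate. Single values were tested by exact permutation in scipy 1.17.1, two-sided. The steps were tested on simulated data.

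Genes were named by a rule: the 10 higher and 10 lower with the largest difference among probes well above background on all 10 arrays without overlap, the 5 higher and 5 lower with the smallest p, all receptor and conjugation genes, and up to 4 leading genes of each other list. Some genes the rule names are not reported here. The genes that set the array of BPA replicate 1 apart were picked after their values were seen. The members of the comparison and the 31 gene lists were chosen with earlier results of these data known. The Müllerian list holds DLGAP5, a mitotic gene entered by mistake and not trimmed. Alternatives covered background correction, scaling, dim probes, outlier spots, variance models, slide, position, replicate number and leaving out each animal. No sequence of a probe is shown.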

Additional observations from a re-analysis of the deposited data

Results flagged for a closer look

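Single arrays stood far from the other 4 of their group in 10 of 176 groups of 5 values examined (5.68%), where chance alone gives about 1 in 20. Of these, 3 were on the array of BPA replicate 1. Its score for the skeletal muscle list was 0.78, with the other BPA arrays at -0.16 to 0.04. Its score for receptor coactivators and corepressors was 0.30, with the others at -0.09 to -0.03. PPARD, a lipid-sensing nuclear receptor, was at 12.72 there and at 12.84 to 12.87 on the others. ARNT was at 7.96 in BPA replicate 5, against 9.13 to 9.37, and the zinc finger gene ZNF503 at 10.71 in BPA replicate 4, against 11.50 to 11.75.

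Among controls, SULT1E1 was at 13.77 in replicate 1, with the others at 15.55 to 15.98. The interferon response score was 0.44 in replicate 2, with the others at -0.17 to 0.00, and ALDH1B1, a mitochondrial aldehyde dehydrogenase, was at 9.55 in the same uterus, against 10.32 to 10.44. C21orf13 was at 7.58 in replicate 3, against 8.70 to 8.92. STS was at 5.12 in replicate 5, against 5.63 to 5.71.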

How the results depend on the processing

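The count of 0 probes between BPA and control was kept under all alternatives except the fit to GD100 arrays only, with 1, and the error model only, with 3363. The count of 0 for a different effect at the 2 ages was kept except under the error model only, with 4663. Counts at an unadjusted p of 0.05 were 6501 under the error model only. Under the other alternatives they ran from 514 without scaling to 1026 with error weights. Leaving out single animals gave 0 called and 581 to 897 at the unadjusted p. The replicate numbers did not pair the samples (same-numbered arrays correlated at -0.17 to 0.07), and with replicate number as a block 0 probes were called and 857 were at the unadjusted p. The slides that held both groups, an alternative chosen after seeing the data, gave 0. Of 181 named genes, 134 kept their sign under every alternative, and of 31 list medians 14 did, the erythroid median not among them. The count of genes is no support, since many were chosen for lack of overlap, a small p or a large difference. For genes without overlap, leaving out a single animal cannot change the sign. The cause of the sign changes was not tested. Signal over background limits PGR, AHR, FSHR and the UGT2B genes, and 5 arrays per group left 34.1% of probes open to a difference over 1.5-fold.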
